A study of Mus musculus with 12 samples.

Results

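The genes described here are 10 genes that inherited variants link to the risk of Alzheimer's disease in people and that are not known mainly for a role in microglia: Ptk2b, Picalm, Mapt, Sorl1, Celf1, Fermt2, Bin1, Abca7, Cd2ap and Slc24a4. They were chosen by name, and every transcript in the count table whose Ensembl identifier belongs to them in the GENCODE M21 annotation was taken, alone and summed per gene. Of the 48033 rows of the table, 22 belonged to 6 of the 10 genes, with 6 rows for Picalm, 5 for Celf1, 4 for Mapt, 3 each for Ptk2b and Sorl1 and 1 for Fermt2. Bin1, Abca7, Cd2ap and Slc24a4 were not analysed here. The libraries were made from the hippocampus and the cerebral cortex of mice aged 7 months on the C57BL/6J background, with 3 libraries from WT mice, which carry no transgene, and 3 from 5 × FAD mice in each region. The 5 × FAD mouse carries transgenes with familial Alzheimer mutations, human APP among them, under elements of the neuronal Thy1 gene, so it models amyloid deposition driven from neurons. Libraries are named by genotype, region and the number in their label.

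Risk genes of this kind work largely in membrane traffic, the cytoskeleton and cell adhesion. Picalm recruits clathrin and its adaptors to the membrane during endocytosis, Bin1 shapes curved membranes, and Sorl1 is a sorting receptor that carries the amyloid precursor protein away from the compartments where it is cleaved. Mapt encodes tau, which binds microtubules and forms the tangles of the disease, Ptk2b encodes the calcium-responsive kinase PYK2 of the focal adhesion kinase family, and Fermt2 encodes kindlin-2, which activates integrins. Celf1 binds RNA and acts on splicing and translation. A retained-intron transcript, the most common kind of row here, is an annotated RNA of a coding gene in which intron sequence that the coding transcripts remove is still present.

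The table sums to between 3517967 and 5014389 counts in a library, so 3 counts, the smallest amount taken as detected, correspond to 0.598 to 0.853 CPM, counts scaled to a common library total. All CPM values below are scaled by the TMM factors of edgeR. In the marker check, 4 of 8 hippocampal marker genes had rows (Zbtb20, Iyd, Lct and Dsp). They summed to between 107.8 and 126.4 CPM in the hippocampus and between 25.6 and 47.8 CPM in the cortex. Of these 4, only Zbtb20 had enough counts to be tested between the regions, so the hippocampal check rests on that gene. The 6 of 8 cortical markers with rows summed to between 192.7 and 310.7 CPM in the hippocampus and between 317.2 and 566.1 CPM in the cortex, so both regions matched their labels. The design states 2 females and 1 male in each group. Xist, the RNA of the inactive X chromosome, had over 1000 counts in 4 libraries, 5 × FAD 1 and 5 × FAD 2 of both regions, and at most 25 elsewhere, whereas Y-linked transcripts were detected in the other 8 libraries, all 6 of WT included. The WT libraries thus went against the stated sexes, and most of the difference between genotypes was also one between libraries with and without Xist. Each genotype comparison was therefore also fitted with a term for the libraries with Xist, which leaves 5 × FAD 3 as the library set against WT. According to the design each mouse gave both tissues, so the regions are not independent, but the labels do not say that the same number marks the same mouse. In whole tissue, fewer cells of a type and less RNA per cell cannot be told apart.

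Of the 22 rows, 11 were annotated as retained-intron transcripts, 10 as processed transcripts and 1, that of Fermt2, as protein-coding. The Ptk2b rows lay on chromosome 14 of GRCm38, minus strand. ENSMUST00000136216 (66153267 to 66160678, 7 exons, 3478 bases) covers the 3′ end of the gene, ENSMUST00000127083 (66172741 to 66280992, 15 exons, 2053 bases) its 5′ part, and ENSMUST00000148104 (66156281 to 66163906, 6 exons, 1284 bases) overlaps the first of them. Exons of protein-coding Ptk2b transcripts covered 42.5%, 72.5% and 40.4% of their bases, and there the reads of a listed transcript and of the mRNA cannot be told apart by sequence. Over all members this share ran from 1.3% in the Picalm transcript ENSMUST00000207106 to 100% in 4 short rows of Picalm, Mapt and Celf1. No other annotated gene overlapped the exons of a member row.

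**Figure D1:**
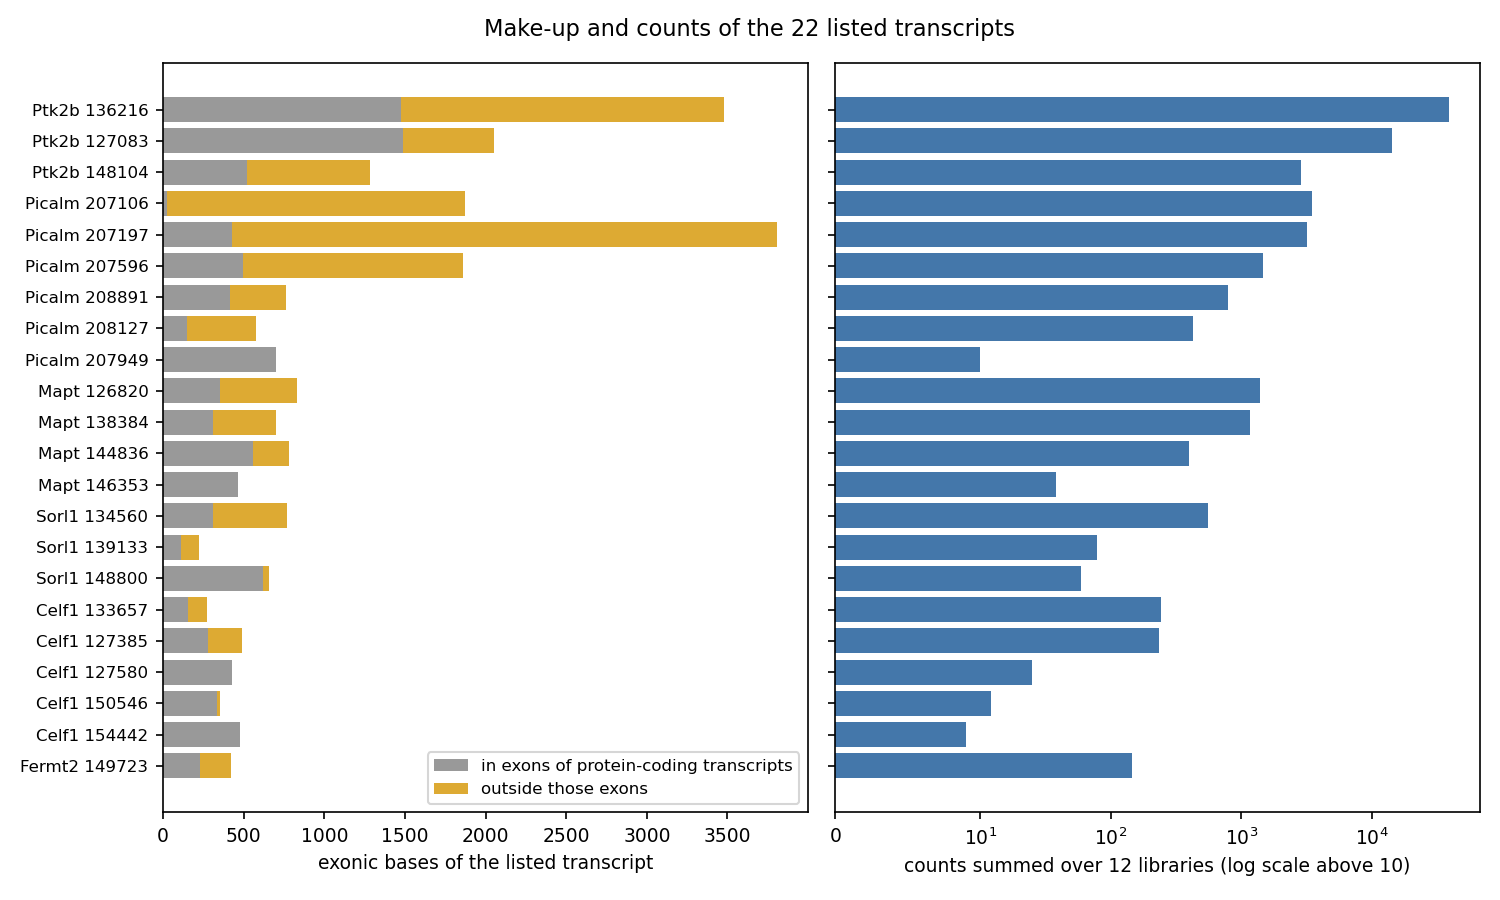
The left panel gives, for each of the 22 listed transcripts, named by gene and the last digits of the identifier, the number of exonic bases inside (grey) and outside (yellow) exons of protein-coding transcripts of the same gene. The right panel gives the counts summed over 12 libraries on a log scale above 10, and Ptk2b ENSMUST00000136216 is the longest bar, with 38901 counts.

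In the retained-intron rows, the bases that set the transcript apart from the mRNA mostly begin or end at splice sites of the coding transcripts. Some other rows have whole exons outside the coding exons, namely Sorl1 ENSMUST00000139133, Mapt ENSMUST00000144836 and Celf1 ENSMUST00000133657. The windows around some of the boundaries are shown because they are where reads of an unspliced intron can be recognised. Each window is written 5′ to 3′ on the strand of the gene, read from the GENCODE M21 transcript sequences, with bases in coding exons in lower case and bases outside them in capitals. The Ptk2b windows lie at chr14:66158648-66158707, chr14:66173276-66173335 and chr14:66163121-66163180 on the minus strand, and the Picalm windows at chr7:90194243-90194302, chr7:90160561-90160620 and chr7:90189120-90189179 on the plus strand of GRCm38.
Ptk2b ENSMUST00000136216, intron before a coding exon: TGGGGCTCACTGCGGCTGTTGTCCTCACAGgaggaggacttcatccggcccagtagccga
Ptk2b ENSMUST00000127083, intron after a coding exon: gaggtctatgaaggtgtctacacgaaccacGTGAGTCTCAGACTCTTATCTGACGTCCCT
Ptk2b ENSMUST00000148104, intron before a coding exon: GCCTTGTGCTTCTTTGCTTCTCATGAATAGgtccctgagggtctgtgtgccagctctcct
Picalm ENSMUST00000207106, a coding exon inside its introns: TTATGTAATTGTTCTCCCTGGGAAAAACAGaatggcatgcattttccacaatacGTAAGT
Picalm ENSMUST00000207197, intron after a coding exon: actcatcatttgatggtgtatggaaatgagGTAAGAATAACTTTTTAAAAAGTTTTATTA
Picalm ENSMUST00000208891, intron before a coding exon: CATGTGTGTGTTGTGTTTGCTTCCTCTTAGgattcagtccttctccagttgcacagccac
The capitals open with GT after a coding exon and close with AG before it, the letters at the ends of nearly all introns. Of the 22 such boundaries in the member rows, 20 had these letters, and in the retained-intron rows they were present at 8 of 8 intron starts and 8 of 9 intron ends. The share of G and C was compared between bases outside and inside coding exons of the same row. Coding exons here are exons of protein-coding transcripts, untranslated parts included. The outside bases had the lower share in the Ptk2b transcript ENSMUST00000136216, at 42.6% against 54.2%, and in the Picalm transcript ENSMUST00000207197, at 37.4% against 51.1%. In ENSMUST00000127083 it was 52.4% outside, against 55.0% inside. The order was reversed in Fermt2 ENSMUST00000149723, at 73.3% outside against 56.2% inside. It was also reversed in Sorl1 ENSMUST00000139133, Mapt ENSMUST00000144836 and Celf1 ENSMUST00000133657 and ENSMUST00000150546.

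Levels per kilobase of transcript take out its length. They do not take out the unlike shares of bases in coding exons, where reads of the mRNA cannot be told apart. On this scale the Ptk2b rows stood highest in the WT hippocampus, with mean levels of 321.3 CPM per kb for ENSMUST00000136216, 168.5 for ENSMUST00000127083 and 53.4 for ENSMUST00000148104. The leading rows of Picalm (ENSMUST00000207106, 36.8 CPM per kb) and Mapt (ENSMUST00000138384, 35.8, and ENSMUST00000126820, 31.4) came next, and their levels lay within each other's spread. Celf1 ENSMUST00000133657 was at 20.6, Sorl1 ENSMUST00000134560 at 19.1 and Fermt2 ENSMUST00000149723 at 4.97 CPM per kb. Together the members took between 0.0507% (WT cortex 3) and 0.2024% (5 × FAD hippocampus 2) of a library's counts, and Ptk2b alone supplied between 51.6% and 87.3% of them. Ptk2b was number 72 of 22103 gene sums by counts.

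**Figure D2:**
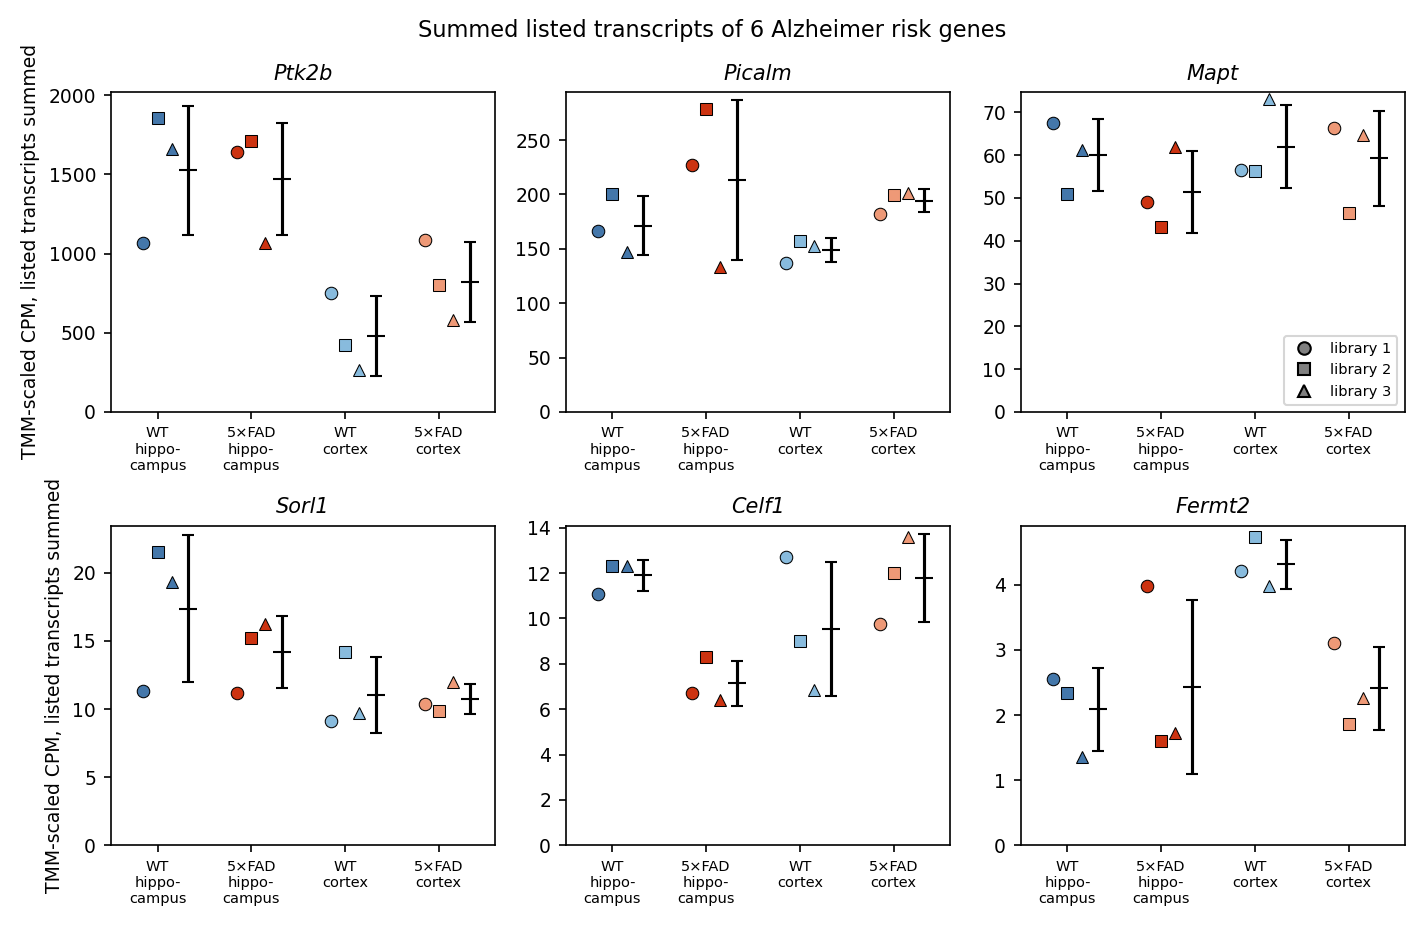
Each panel plots the TMM-scaled CPM of a gene's listed transcripts summed, with 1 point for each of the 12 libraries (circle, square and triangle for libraries 1, 2 and 3) and the mean ± SD of each group beside them. The Ptk2b points of the WT hippocampus, from 1069.5 to 1853.3, all lie above those of the WT cortex, from 262.2 to 753.1, while the Mapt points of the 4 groups overlap.

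Between 5 × FAD and WT, no member passed the test in either region. In the hippocampus, edgeR called 0 of 14 transcripts tested, against 0.0183% of all 21894 transcripts tested, and 0 of 5 gene sums, against 0.0529% of all gene sums. DESeq2 also called 0 at both levels, 1 transcript and 1 gene sum had an unadjusted p under 0.05 by edgeR, and the background rates of such p-values were 7.58% and 8.69%. In the cortex, edgeR and DESeq2 called 0 of 15 transcripts and 0 of 6 gene sums, beside 0.0545% and 0.0175% of all tested by edgeR. Here 4 of 15 transcripts and 2 of 6 gene sums had an unadjusted p under 0.05, beside 5.34% and 6.67% of all. The groups did not overlap for 5 of the 15 cortical transcripts, 4 higher and 1 lower in 5 × FAD, where 12.1% of all transcripts tested were free of overlap (6.15% higher and 5.94% lower), and for 3 of 14 in the hippocampus, all lower in 5 × FAD, where the share was 15.8% (8.51% lower). All 4 higher ones were Picalm rows, which share a gene and its libraries, and the lower one was that of Fermt2. The 3 hippocampal ones were 2 rows of Celf1 and 1 of Mapt. Of the gene sums, Celf1 was free of overlap in the hippocampus and Picalm and Fermt2 in the cortex, 1 of 5 and 2 of 6, beside 16.5% and 13.1% of all. The median log2 difference over the tested transcripts was -0.18 in the hippocampus and 0.23 in the cortex, beside 0.02 and 0.00 over all transcripts tested. The 7 member rows that the filter on low counts kept out of every comparison had median counts below 10.

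Between hippocampus and cortex, Ptk2b stood apart by size but not by edgeR's threshold. In WT, edgeR called 0 of 15 transcripts (0.986% of all) and 0 of 6 gene sums (3.49% of all), while DESeq2 called 1 transcript and 1 gene sum, both of Ptk2b. By edgeR, 3 of the 15 transcripts and 2 of the 6 gene sums had an unadjusted p under 0.05, beside 12.8% and 17.3% of all. The WT groups did not overlap for 5 of 15 transcripts, beside 20.6% of all, and for 2 of 6 gene sums, those of Ptk2b and Fermt2, beside 24.9% of all. In 5 × FAD, edgeR and DESeq2 called 0 of 14 transcripts and 0 of 5 gene sums (0.0182% and 0.193% of all by edgeR), with 0 transcripts and 2 gene sums under an unadjusted p of 0.05, beside 9.38% and 12.6% of all, and 1 of 14 transcripts and 1 of 5 gene sums without overlap, both of Celf1, beside 17% and 19.2% of all. The test of whether the genotype difference itself differs between the regions called 0 of 15 transcripts and 0 of 6 gene sums with either tool (0.00812% and 0% of all by edgeR), with 1 member at each level under an unadjusted p of 0.05, beside 6.89% and 7.01% of all.

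**Figure D3:**
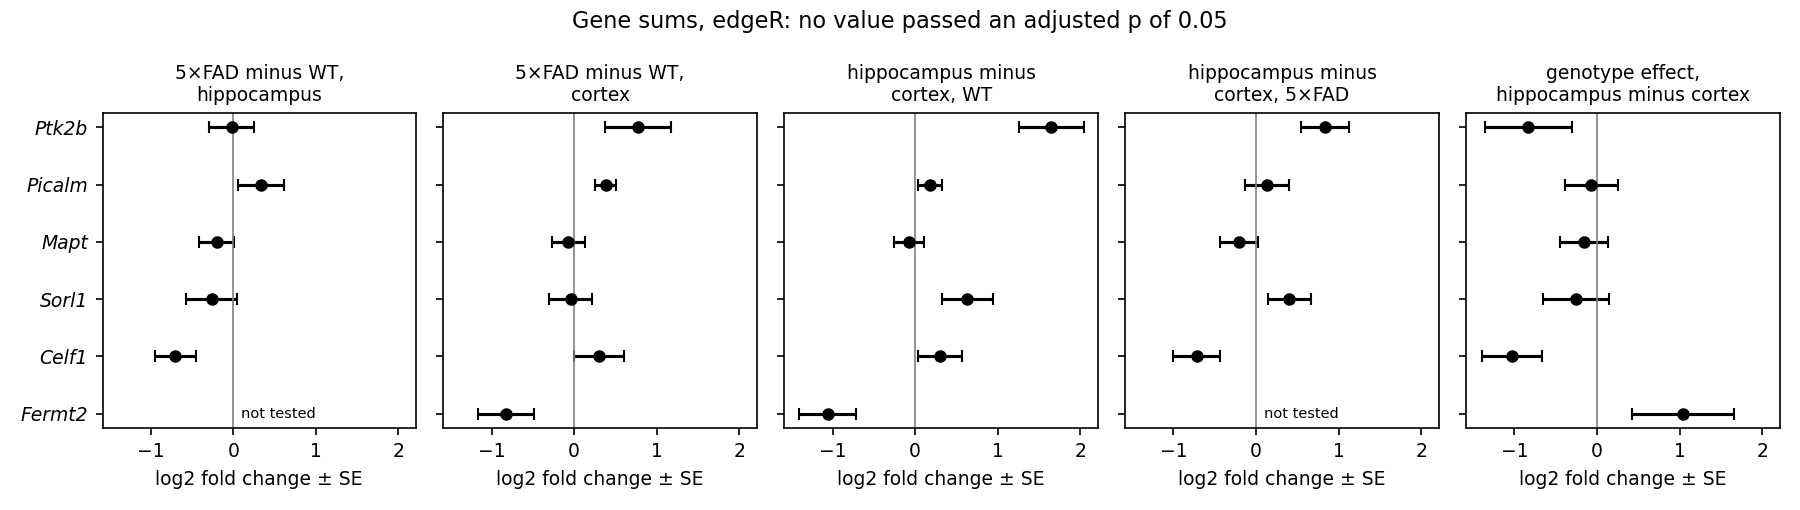
Points give the log2 fold change of each gene sum from edgeR and bars its standard error, in 5 panels for the genotype comparison in each region, the region comparison in each genotype and the difference between the genotype comparisons. The Ptk2b value of 1.65 for hippocampus minus cortex in WT lies farthest from 0, and Fermt2 was not tested in the hippocampus or in the 5 × FAD region comparison.

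Ptk2b had 5012, 8725 and 7307 summed counts in the libraries 1, 2 and 3 of the WT hippocampus and 6584, 7431 and 4337 in those of the 5 × FAD hippocampus. The cortical libraries gave 3211, 1965 and 920 for WT and 4896, 3010 and 2553 for 5 × FAD. In CPM, the hippocampal libraries ran from 1067.7 (5 × FAD 3) to 1853.3 (WT 2). WT cortex 3, at 262.2, and WT cortex 2, at 422.3, were the lowest of all. WT cortex 1, at 753.1, lay above 5 × FAD cortex 3, at 578.8. The group means were 1526.9 ± 408.0 CPM in the WT hippocampus, 1473.0 ± 352.9 in the 5 × FAD hippocampus, 820.8 ± 253.0 in the 5 × FAD cortex and 479.2 ± 250.3 in the WT cortex (SD, n = 3 each). Neighbours in that order overlapped throughout. Hippocampus against cortex in WT gave a log2 fold change of 1.65 (SE 0.39), 3.15-fold, without overlap between the groups, at an adjusted p of 0.0795 in edgeR and 0.000564 in DESeq2. The edgeR value was 0.0453 when all 12 libraries entered the fit and 0.0463 without WT cortex 1, the highest of its group, where the log2 fold change was 2.14. In 5 × FAD the same difference was 0.84 (SE 0.29, adjusted p = 0.303 by edgeR), and the groups overlapped, since 5 × FAD hippocampus 3 at 1067.7 CPM lay below 5 × FAD cortex 1 at 1083.6. The neuronal markers with rows (7 of 9, none at 0 in all libraries) summed to between 1099.9 and 2999.8 CPM in the WT hippocampus and between 1206.9 and 2446.8 in the WT cortex, and their part in the Ptk2b difference was not tested.

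Between genotypes the Ptk2b sum in the hippocampus had a log2 fold change of -0.02 (SE 0.27, adjusted p = 0.984 by edgeR) and one of -0.49 (SE 0.32, adjusted p = 0.629) with the term for Xist. In the cortex it was 0.77 (SE 0.40, adjusted p = 0.771), with 5 × FAD 1 and 2 above every WT library and 5 × FAD 3 between WT 2 and WT 1. With that term the cortical value was 0.27 (SE 0.54), and without WT cortex 1 it was 1.26. The difference between the regional genotype values was -0.83 (SE 0.53, adjusted p = 0.79 by edgeR).

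Ptk2b ENSMUST00000136216, the row at the 3′ end, had 2769, 6610 and 5934 counts in the WT hippocampus, 2494, 4689 and 3856 in the 5 × FAD hippocampus, 2892, 1225 and 697 in the WT cortex and 3199, 2275 and 2261 in the 5 × FAD cortex. In both genotypes the hippocampal library 1 lay within the range of the cortex, at 592.1 CPM in WT and 613.5 in 5 × FAD, and libraries 2 and 3 stood above that range. The cortex ran from 512.2 to 709.8 CPM in 5 × FAD. In WT it was at 685.9, 263.9 and 196.3, so only WT cortex 1 was near 592.1. The WT region difference was 1.53 on the log2 scale (SE 0.55, adjusted p = 0.318 by edgeR), with overlap because WT cortex 1 stood at 685.9 CPM.

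Ptk2b ENSMUST00000127083, the row of the 5′ part, was chosen for description after its values were seen. It had 1854, 1809 and 1122 counts in the WT hippocampus and 3907, 2595 and 102 in the 5 × FAD hippocampus. It had 47, 581 and 114 counts in the WT cortex and 1466, 585 and 29 in the 5 × FAD cortex. The library 5 × FAD 3 was the lowest of its group in both regions, at 24.8 CPM in the hippocampus, where the other two were at 961.0 and 597.7. The 5 × FAD libraries differed 49.5-fold in the cortex between the highest and the lowest. The WT cortex varied 11.2-fold among its libraries, whereas the WT hippocampus varied 1.55-fold. This row made up between 1.14% (5 × FAD cortex 3) and 59.3% (5 × FAD hippocampus 1) of the Ptk2b counts. The WT hippocampus lay above the WT cortex in all libraries, at 345.9 ± 78.6 against 56.1 ± 60.7 CPM (SD, n = 3 each), a log2 fold change of 2.60 (SE 0.84, adjusted p = 0.271 by edgeR and 0.0144 by DESeq2). Without WT cortex 2, the highest of its group, that log2 fold change was 3.97.

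The genotype difference of ENSMUST00000127083 in Ptk2b turned with the libraries used. In the hippocampus it was 0.63 (SE 1.01, adjusted p = 0.895 by edgeR) over all 6 libraries, 1.19 (SE 0.30) without 5 × FAD 3, -0.13 without 5 × FAD 1 and -3.79 (SE 0.50, adjusted p = 0.123) with the term for Xist. In the cortex it was 1.54 (SE 1.33, adjusted p = 0.916), 2.10 without 5 × FAD 3 and -3.09 (SE 1.56) with that term. No WT library carried Xist, and the part of sex in these values was not tested. ENSMUST00000148104, also chosen after its values were seen, showed no such drop: it had 389, 306 and 251 counts in the WT hippocampus, 183, 147 and 379 in 5 × FAD, 272, 159 and 109 in the WT cortex and 231, 150 and 263 in 5 × FAD. In both regions 5 × FAD 3 was the highest of its group for it.

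**Figure D4:**
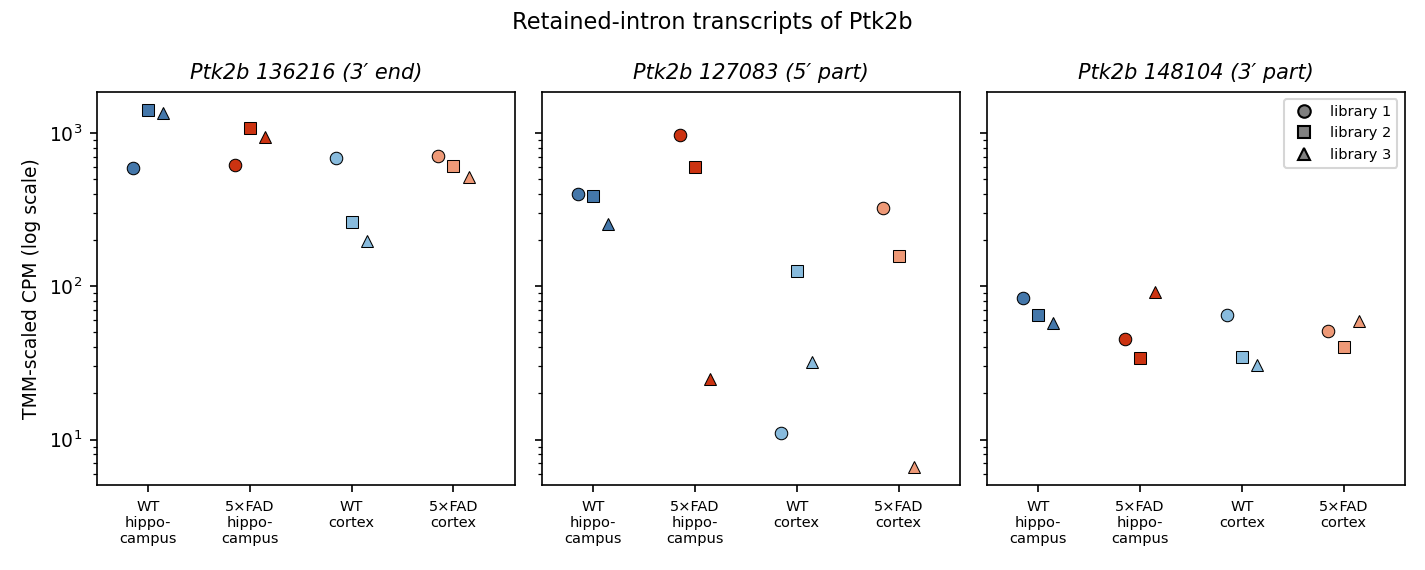
The TMM-scaled CPM of the 3 Ptk2b transcripts, on a log scale, is plotted with 1 point for each library in each group. For ENSMUST00000127083 the triangles of 5 × FAD 3 lie far below the other two libraries, at 24.8 CPM in the hippocampus, while for ENSMUST00000148104 they lie above them.

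Picalm had 780, 943 and 649 summed counts in the WT hippocampus and 912, 1209 and 542 in the 5 × FAD hippocampus. The cortical libraries gave 584, 732 and 535 for WT and 822, 749 and 888 for 5 × FAD. In CPM, the cortical libraries of 5 × FAD, from 181.9 to 201.3, all lay above those of WT, from 137.0 to 157.3, whereas in the hippocampus 5 × FAD 1 and 2 lay above every WT library and 5 × FAD 3, at 133.4, below them. The means were 194.1 ± 10.6 against 148.9 ± 10.6 CPM in the cortex and 213.0 ± 73.6 against 171.3 ± 26.9 in the hippocampus (SD, n = 3 each). The cortical log2 fold change was 0.38 (SE 0.13), 1.30-fold, at an adjusted p of 0.725 in edgeR. It lay between 0.32 and 0.43 over all alternative fits, and was 0.43 with the term for Xist. In the hippocampus the value was 0.34 (SE 0.28, adjusted p = 0.724) and turned to -0.33 (SE 0.24) with that term, and the difference between the regional values was -0.07 (SE 0.32). From the highest mean to the lowest, the order was 5 × FAD hippocampus, 5 × FAD cortex, WT hippocampus and WT cortex, and apart from the genotype pair in the cortex the groups overlapped.

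The most abundant Picalm row, ENSMUST00000207106, lies on chromosome 7 from 90193099 to 90194971 and is 1 exon of 1873 bases, of which 24 belong to a coding exon. It had 297, 393 and 260 counts in the WT hippocampus, 354, 495 and 188 in the 5 × FAD hippocampus, 220, 258 and 193 in the WT cortex and 312, 240 and 267 in the 5 × FAD cortex. In the cortex 5 × FAD averaged 64.7 ± 4.37 CPM and WT 54.0 ± 1.72 (SD, n = 3 each), without overlap. The log2 fold change there was 0.26 (SE 0.15, adjusted p = 0.913 by edgeR).

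ENSMUST00000208891 had the smallest unadjusted p of the Picalm rows in the cortex. It lies from 90188803 to 90195714 on chromosome 7, has 5 exons and 763 bases and shares 54.5% of them with coding exons. Its counts were 46, 49 and 31 in the WT cortex and 81, 75 and 122 in the 5 × FAD cortex, so every 5 × FAD library was above every WT library. The means were 10.1 ± 1.17 and 21.9 ± 5.07 CPM (SD, n = 3 each), a log2 fold change of 1.12 (SE 0.24), 2.17-fold, at an adjusted p of 0.68 in edgeR. Over the alternative fits the value lay between 0.92 and 1.46 and the adjusted p between 0.178 and 0.95. In the hippocampus the counts were 62, 92 and 42 for WT and 62, 90 and 38 for 5 × FAD, with a log2 fold change of 0.11 (SE 0.40), and the test of the difference between the regions gave -1.03 (SE 0.48, adjusted p = 0.738). Its share of the Picalm counts ran from 5.79% to 9.76% in the 9 libraries outside the 5 × FAD cortex, and from 9.85% to 13.7% in the 5 × FAD cortex.

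The rows ENSMUST00000207197 and ENSMUST00000208127 were also free of overlap in the cortex, with log2 fold changes of 0.43 (SE 0.17, adjusted p = 0.912) and 0.84 (SE 0.30, adjusted p = 0.912 by edgeR). ENSMUST00000207596, which lies at the 5′ end of Picalm, had 112, 154 and 113 counts in the WT cortex and 129, 140 and 134 in the 5 × FAD cortex, which overlapped, with a log2 fold change of 0.08 (SE 0.19). The sixth row, ENSMUST00000207949, had 10 counts in all libraries together and did not pass the filter. Among the marker lists, 6 of 9 oligodendrocyte markers had rows (Mbp, Mag, Cnp, Mobp, Myrf and Ugt8a). Their sum was also without overlap in the cortex, at 266.5 to 451.9 CPM in WT and 477.2 to 529.2 in 5 × FAD. All 6 had a log2 difference above 0 there, with a median of 0.46. In the hippocampus, where the Picalm sums overlapped, this marker sum was likewise without overlap, at 302.9 to 395.4 CPM in WT and 443.4 to 540.2 in 5 × FAD. There 2 of the 6 markers were higher and 4 lower in 5 × FAD, with a median log2 difference of -0.16. The microglial markers with rows (6 of 14) summed to between 48.4 and 72.4 CPM in the WT cortex and between 40.6 and 255.4 in the 5 × FAD cortex. None of these markers was at 0 in all libraries, and their part in the Picalm values was not tested.

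**Figure D5:**
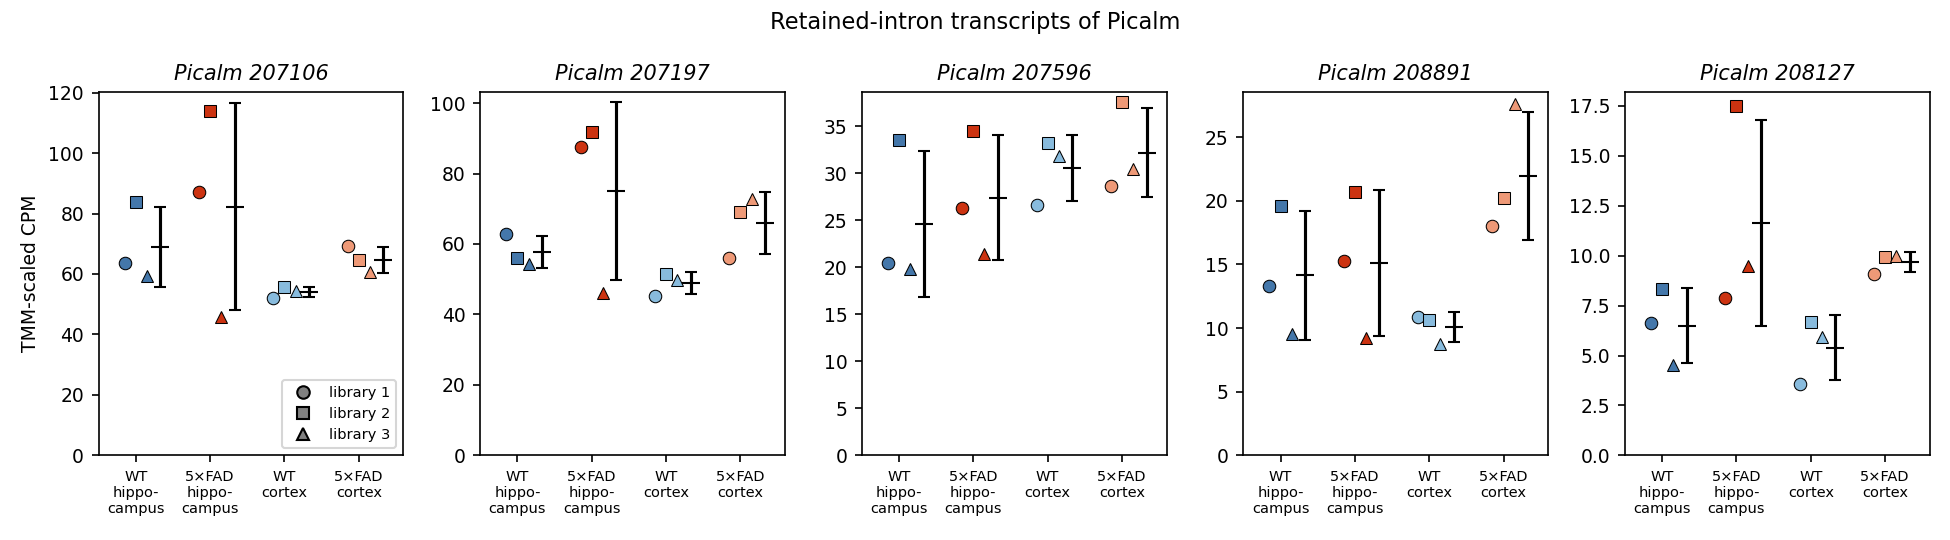
The TMM-scaled CPM of 5 Picalm transcripts is plotted with 1 point for each library and the mean ± SD of each group. In the cortex the 5 × FAD libraries of ENSMUST00000208891, with a mean of 21.9, lie above those of WT, with a mean of 10.1, while those of ENSMUST00000207596 overlap.

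Mapt, on the plus strand of chromosome 11, had 317, 240 and 270 summed counts in the WT hippocampus, 197, 187 and 252 in the 5 × FAD hippocampus, 241, 262 and 257 in the WT cortex and 300, 175 and 286 in the 5 × FAD cortex. Means ran from 51.4 ± 9.69 CPM in the 5 × FAD hippocampus through 59.3 ± 11.1 in the 5 × FAD cortex and 60.0 ± 8.41 in the WT hippocampus to 62.0 ± 9.71 in the WT cortex (SD, n = 3 each). No pair of groups was free of overlap. The genotype log2 fold change was -0.20 (SE 0.21, adjusted p = 0.789 by edgeR) in the hippocampus and -0.07 (SE 0.20) in the cortex. Both changed sign with the term for Xist, to 0.08 and 0.06. The region values were -0.07 (SE 0.18) in WT and -0.21 (SE 0.23) in 5 × FAD.

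The Mapt row with the most counts, ENSMUST00000126820, is a processed transcript (104321949 to 104328210, 2 exons, 831 bases). It had 128, 116 and 115 counts in the WT hippocampus and 94, 99 and 101 in 5 × FAD, at 26.1 ± 1.31 and 23.5 ± 0.949 CPM (SD, n = 3 each). The groups did not overlap, but the difference was small, at -0.13 on the log2 scale (SE 0.19, adjusted p = 0.875 by edgeR). The retained-intron row ENSMUST00000138384 (104231479 to 104295317, 3 exons) takes in the 5′ end of the gene. Its last exon runs past a coding exon into the intron at chr11:104294895-104294954, shown because this is the only Mapt row annotated as a retained-intron transcript.
Mapt ENSMUST00000138384, intron after a coding exon: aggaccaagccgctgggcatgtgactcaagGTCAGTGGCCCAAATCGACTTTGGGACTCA
It had 153, 93 and 100 counts in the WT hippocampus, 68, 71 and 124 in the 5 × FAD hippocampus, 92, 86 and 108 in the WT cortex and 84, 71 and 108 in the 5 × FAD cortex, and the groups overlapped in every comparison. ENSMUST00000144836 had between 17 and 43 counts a library and ENSMUST00000146353 between 0 and 12.

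Sorl1, on the minus strand of chromosome 9, had 53, 101 and 85 summed counts in the WT hippocampus, 45, 66 and 66 in the 5 × FAD hippocampus, 39, 66 and 34 in the WT cortex and 47, 37 and 53 in the 5 × FAD cortex. The hippocampal libraries 2 and 3 of WT were the highest, and WT hippocampus 1, at 11.3 CPM, lay within the range of the cortex. Hippocampus minus cortex was 0.63 on the log2 scale in WT (SE 0.31, adjusted p = 0.358 by edgeR) and 0.40 in 5 × FAD (SE 0.26, adjusted p = 0.597), with overlap in both. The genotype values were -0.26 (SE 0.31) in the hippocampus and -0.04 (SE 0.26) in the cortex. The row ENSMUST00000134560 held 80.1% of the Sorl1 counts over the 12 libraries, and the 2 others had at most 10 counts in a library. It opens with intron sequence that ends at chr9:41974100-41974159, given because this row carries most of the Sorl1 counts.
Sorl1 ENSMUST00000134560, intron before a coding exon: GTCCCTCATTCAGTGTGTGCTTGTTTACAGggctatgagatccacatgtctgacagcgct
Its counts were 45, 88 and 69 in the WT hippocampus, 34, 48 and 54 in the 5 × FAD hippocampus, 32, 55 and 23 in the WT cortex and 35, 32 and 39 in the 5 × FAD cortex.

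Celf1, on the plus strand of chromosome 2, had 52, 58 and 54 summed counts in the WT hippocampus and 27, 36 and 26 in the 5 × FAD hippocampus. The cortical libraries gave 54, 42 and 24 for WT and 44, 45 and 60 for 5 × FAD. The 3 libraries of the 5 × FAD hippocampus were lower than all of the WT hippocampus and all of the 5 × FAD cortex. The means were 7.14 ± 1.01 CPM in the 5 × FAD hippocampus, 9.51 ± 2.94 in the WT cortex, 11.8 ± 1.94 in the 5 × FAD cortex and 11.9 ± 0.688 in the WT hippocampus (SD, n = 3 each). The hippocampal genotype difference was -0.70 on the log2 scale (SE 0.25, adjusted p = 0.532 by edgeR), 1.63-fold lower in 5 × FAD, and -0.86 (SE 0.34) with the term for Xist. In the cortex it was 0.30 (SE 0.30), and the difference between the regions was -1.03 (SE 0.36, adjusted p = 0.657). Hippocampus minus cortex was -0.72 in 5 × FAD (SE 0.28, adjusted p = 0.36) and 0.30 in WT (SE 0.27). The astrocyte markers with rows (6 of 8, none at 0 in all libraries) summed to between 1483.4 and 1565.0 CPM in the WT hippocampus and between 541.9 and 1220.8 in the 5 × FAD hippocampus, likewise lower without overlap in the sum. Of the 5 tested between genotypes, 3 were lower and 2 higher in 5 × FAD, with a median log2 difference of -0.02. Other marker sums were free of overlap there in the other direction. Microglia had 36.1 to 44.7 CPM in WT and 53.2 to 211.3 in 5 × FAD, and oligodendrocytes 302.9 to 395.4 and 443.4 to 540.2. Of the single markers tested, 2 of 3 and 2 of 6 were higher in 5 × FAD. The sums of neurons and endothelial cells overlapped. The part of any of these markers in the Celf1 values was not tested.

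The Celf1 row with the smallest unadjusted p in the hippocampus was the processed transcript ENSMUST00000127385 (91012489 to 91013372, 2 exons, 489 bases), which starts in an intron at its 5′ end, with the boundary in the window chr2:91012669-91012728 printed because this row leads the difference.
Celf1 ENSMUST00000127385, intron before a coding exon: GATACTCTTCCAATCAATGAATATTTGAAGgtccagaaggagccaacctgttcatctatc
It had 19, 29 and 31 counts in the WT hippocampus, 9, 15 and 7 in 5 × FAD, 34, 14 and 15 in the WT cortex and 15, 20 and 25 in the 5 × FAD cortex. Only the hippocampal genotype groups were free of overlap among its 4 comparisons of groups, with a log2 fold change of -1.20 (SE 0.40, adjusted p = 0.612 by edgeR), 2.30-fold lower in 5 × FAD. ENSMUST00000133657, the row with the most counts, had 30, 26 and 21 in the WT hippocampus, 17, 13 and 16 in 5 × FAD, 17, 21 and 7 in the WT cortex and 20, 23 and 32 in the 5 × FAD cortex. Its genotype values were -0.58 (SE 0.30) in the hippocampus and 0.74 (SE 0.39) in the cortex, and the test of their difference gave -1.34 (SE 0.48, adjusted p = 0.661 by edgeR). The 3 other Celf1 rows had between 0 and 7 counts in a library.

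Fermt2, on the minus strand of chromosome 14, was measured by the row ENSMUST00000149723 (45504672 to 45529786, 2 exons, 421 bases), annotated as a short protein-coding transcript. It had 12, 11 and 6 counts in the WT hippocampus, 16, 7 and 7 in the 5 × FAD hippocampus, 18, 22 and 14 in the WT cortex and 14, 7 and 10 in the 5 × FAD cortex. In CPM the WT cortex libraries, the lowest at 3.99, lay above all others, but 5 × FAD hippocampus 1 came close at 3.98. The means were 4.31 ± 0.378 CPM in the WT cortex, 2.44 ± 1.34 in the 5 × FAD hippocampus, 2.41 ± 0.631 in the 5 × FAD cortex and 2.09 ± 0.638 in the WT hippocampus (SD, n = 3 each), of which the last 3 overlapped each other. The gene-level cortical genotype difference was -0.83 on the log2 scale (SE 0.34, adjusted p = 0.74 by edgeR) and the WT region difference -1.06 (SE 0.35, adjusted p = 0.178). At these counts, a few reads decide the order of the libraries. Too few counts kept Fermt2 out of the hippocampal genotype test and the 5 × FAD region test.

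Genes that work beside the members were counted from lists of clathrin endocytosis, retromer and VPS10 sorting, microtubule proteins and tau kinases, focal adhesion kinases and integrin partners, and paralogs of the members. Of 98 genes listed, 76 had rows and 70 were tested between genotypes in each region. None was called by edgeR in either region, with an unadjusted p under 0.05 for 1 higher and 4 lower in the hippocampus and 1 higher and 3 lower in the cortex. Over all gene sums tested, 8.69% and 6.67% had such a p, in each region more than the share among the listed genes. In the hippocampus these were Epn1, an endocytic adaptor, with a log2 fold change of 0.89 (SE 0.23), Synj1, a phosphatase of vesicle uncoating, with -1.05 (SE 0.28), Sh3kbp1 with -0.52 (SE 0.21), the dendritic microtubule protein Map2 with -0.36 (SE 0.15), and Slc24a2, an exchanger of the Slc24a4 family, with -0.52 (SE 0.17). Their adjusted p-values in edgeR ran from 0.495 to 0.568. In the cortex they were Gga3, an adaptor that binds sorting receptors such as Sorl1, with -0.69 (SE 0.13), the tau kinase Mark2 with -1.38 (SE 0.50), the clathrin adaptor subunit Ap2a1 with -0.49 (SE 0.21) and the lipid transporter Abca8a with 0.98 (SE 0.34), at adjusted p-values from 0.417 to 0.74 by edgeR. Gga3 had 536, 544 and 443 counts in the WT cortex and 362, 265 and 348 in the 5 × FAD cortex, which did not overlap. Mark2 had 97, 93 and 247 counts in the WT cortex and 63, 46 and 75 in the 5 × FAD cortex, so the size of its change rests largely on WT cortex 3. DESeq2 called 0 of the listed genes between genotypes in the hippocampus and 1 in the cortex, Gga3.

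Between the regions in WT, 2 of the 70 genes passed the edgeR test, beside 3.49% of all gene sums, and both were higher in the hippocampus. Slc24a2 had 1206, 1412 and 961 counts in the WT hippocampus and 627, 696 and 431 in the WT cortex, a log2 fold change of 0.87 (SE 0.15, adjusted p = 0.032). Map4, a microtubule-associated protein like tau, had 354, 450 and 296 counts in the hippocampus and 184, 193 and 109 in the cortex, a log2 fold change of 1.02 (SE 0.19, adjusted p = 0.0383). By list, the median log2 difference between hippocampus and cortex in WT was -0.10 for clathrin endocytosis, 0.20 for retromer and VPS10 sorting, 0.08 for microtubule proteins, -0.09 for focal adhesion and -0.16 for the paralogs, beside -0.02 over all gene sums. DESeq2 called 4 of the listed genes in this comparison, Slc24a2 and Map4 together with Celf5, an RNA-binding relative of Celf1, and Gga3, whose log2 differences were -0.73 (SE 0.17) and -0.63 (SE 0.13).

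Among 5634 gene sums averaging at least 100 counts, the pattern over the 12 libraries closest to each member was taken as the smallest mean absolute difference of centred log2 CPM. For Picalm this was 6720427I07Rik at 0.076, beside a median of 0.349 over all gene sums compared, and for Celf1 it was Adal at 0.128, beside 0.39. The closest to Mapt was Rab36 at 0.105 (median 0.308) and to Sorl1 F730043M19Rik at 0.133 (median 0.395). Fermt2 was closest to Clip1 at 0.196 (median 0.49). Ptk2b had the largest difference from its closest partner, Orai2 at 0.303 (median 0.721), which had 150, 212 and 224 counts in the WT hippocampus and 83, 83 and 45 in the WT cortex. Ptk2b also varied most itself, with a mean absolute centred log2 CPM of 0.693, beside 0.429 for Fermt2 and 0.194 for Mapt. The differences were not scaled to this spread. These are descriptions over libraries that share depth and region.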

How the data were processed

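Ribosomal RNA was removed from total RNA of each tissue sample, stranded libraries were prepared and both ends of the fragments were sequenced. The paper, which reports circular RNAs of the hippocampus, also describes RNase R treatment against linear RNA. Whether that step applies to the libraries counted here was not established. Per the labels, reads were trimmed with Trimmomatic 0.36, and edgeR is named among the tools. The aligner, the counting program, the build and the gene models are not given in the sources used here. The authors deposited whole-number counts per transcript, not normalized, for 12 libraries, and all 12 columns were used. A row at 0 in every library (7951 of 48033) was kept in the table and dropped by the filter.

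Identifiers were matched to GENCODE M21 on GRCm38 (45372 of 45597 Ensembl identifiers matched, 225 did not, and 2436 rows are assembled transcripts). The test was that of edgeR 4.0.16 under R 4.3.3 (filterByExpr, TMM, glmQLFit, glmQLFTest) over all rows and, separately, over all gene sums, with Benjamini-Hochberg adjustment over every feature tested and a threshold of 0.05. Each comparison used the 6 libraries concerned, and the difference between regional genotype effects used all 12. The standard error is the size of the log2 fold change divided by the square root of F. DESeq2 1.42.0 and the other alternatives are given at the end. The functions were tested on simulated data. Tables and figures used Python 3.11.15, pandas 2.3.3 and matplotlib 3.10.9. The precision of low counts is limited by counting error, and floors of 3 counts cover counting error only.

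The members and lists were chosen with earlier results of these data known. Named transcripts are the one with the most counts in each gene, any called, the one with the smallest unadjusted p under 0.05 in each genotype comparison, and any with at least 100 counts in 1 library and at most 3 in another, of which there were 0. Related genes are named where they had an unadjusted p under 0.05 between genotypes, which includes the 3 smallest in each region, or were called. Rows described outside this rule are named as chosen after their values were seen, as are the remaining Picalm, Mapt and Celf1 rows. A transgene name and 1 oligodendrocyte marker are not reported here, and the marker sum was computed without that marker.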

Additional observations from a re-analysis of the deposited data

How the results depend on the processing

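Under the alternatives tried (other scaling, DESeq2, other filters, all 12 libraries, the replicate block, a term for Xist, each library left out), the count of members called stayed at 0 except between regions in WT. There it was 1 by DESeq2 for transcripts (Ptk2b ENSMUST00000127083) and 1 for gene sums (Ptk2b) by DESeq2 and in the fit of all 12 libraries, and between 0 and 1 when single libraries were left out, with 1 without WT cortex 1. Same-numbered libraries were not paired in the main fits, because the labels do not state that they come from the same mouse. Their deviations from the group means correlated at 0.006 to 0.132 between regions within a genotype, and at -0.039 to 0.009 between genotypes within a region. Differently numbered libraries of the same genotype gave -0.106 to 0.058 between regions. In both regions Xist was high in 5 × FAD 1 and 2, and Y-linked transcripts were detected in 5 × FAD 3. The main region tests did not model any such pairing. With the number as a replicate block 0 members were called in every comparison, and over all gene sums in the WT region comparison 5 were called in place of 399. Fermt2 has no value at a minimum of 10 counts in every library.

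Of 62 log2 fold changes recomputed, 16 changed sign under some alternative, and the cause was not tested. With the Xist term, hippocampal genotype values became -0.58 for Picalm ENSMUST00000207106, -0.60 for ENSMUST00000208891, -0.33 for the Picalm sum, -3.79 for Ptk2b ENSMUST00000127083 and 0.08 for the Mapt sum. Cortical ones became 0.16 for Celf1 ENSMUST00000127385, 0.03 for Sorl1 ENSMUST00000134560, 0.12 for the Sorl1 sum, -3.09 for Ptk2b ENSMUST00000127083 and 0.06 for the Mapt sum. With the replicate block, hippocampal Ptk2b ENSMUST00000127083 was -0.24 and cortical Sorl1 ENSMUST00000134560 was 0.00, and with library size only the hippocampal Ptk2b sum was 0.01.

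With single libraries left out, hippocampal genotype values ran from -0.03 to 0.56 for Picalm ENSMUST00000207106, from -0.18 to 0.41 for ENSMUST00000208891, from -0.13 to 1.19 for Ptk2b ENSMUST00000127083 and from -0.23 to 0.16 for the Ptk2b sum. Cortical ones ran from -0.37 to 0.39 for Celf1 ENSMUST00000127385, from -0.12 to 0.24 for Mapt ENSMUST00000126820, from -0.16 to 0.08 for the Mapt sum, from -0.22 to 0.25 for Sorl1 ENSMUST00000134560 and from -0.16 to 0.19 for the Sorl1 sum. Region values ran in WT from -0.12 to 0.66 for Celf1 ENSMUST00000127385 and from -0.16 to 0.08 for the Mapt sum, and in 5 × FAD from -0.11 to 0.38 for the Picalm sum, whose difference between regional genotype effects ran from -0.31 to 0.21. Depth limits Fermt2, Celf1 and the short rows, whose order can rest on a few counts, and with 3 libraries a group the standard errors of the gene sums lay between 0.13 and 0.62.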

Other observations

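The Celf1 row ENSMUST00000150546, which joins the first exon of the gene to an internal exon, had exactly 1 count in each of the 12 libraries, as 35 of the 48033 rows of the table did, and did not pass the filter on low counts. Of the 9529 rows that reached 100 counts in a library, 1066 (11.2%) had at most 3 counts in another of the 12 libraries, of the same or of another group, while none of the 9 member rows that reached 100 counts did.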
